A study of Mus musculus with 3 samples.

Results

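The small leucine-rich proteoglycans (SLRPs) and their hyaluronan-binding partners were followed in the primordia of the mouse esophagus, stomach and intestine. The group holds 10 genes chosen by name, and 13 array probes of 41112 had an accession that mapped to one of them. Counts and medians take 1 probe per gene, the one with the highest mean level, and other probes are given beside it. All 10 had a probe, among 16998 genes named on the array. RNA came from ICR embryos at embryonic day 11.5, with no genetic change or treatment given in the labels, and was measured on 1-colour Agilent arrays, 1 array per organ. Each difference below therefore compares 1 array with 1 array, has no replicate check and carries no test. The number of embryos behind a sample is not given in the labels, and the extraction text names the stomach for all 3 samples, so the organ was taken from titles and tissue labels.

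SLRPs are secreted proteins built around leucine-rich repeats, most of which carry sugar chains. They bind collagen fibrils, set fibril width and spacing, and hold growth factors such as TGF-beta and BMPs in the matrix. Versican (Vcan) is a large chondroitin sulphate proteoglycan that binds hyaluronan, and the link protein Hapln1 locks it onto the hyaluronan chain. In embryos this hydrated matrix fills the mesenchyme that surrounds epithelial tubes, and it fills the cushions of the developing heart.

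The level of a probe is given as log2 of its processed signal less the 75th percentile of its array, and a negative level is simply below that percentile. That percentile was an intensity of 393 in esophagus, 334 in stomach and 1023 on the intestine array. A probe that the scanner software did not call well above background is called dim. Where a gene had several measured probes, their differences had a median SD of 0.25 log2 units between stomach and esophagus. That SD was 0.46 between intestine and esophagus and 0.31 between intestine and stomach. These SDs are the yardstick for small differences here, and they do not cover variation between embryos or dissections. Of the genes used as organ markers, Cdx2 was dim in esophagus, at −4.37 in stomach and at 1.85 in intestine. Barx1 stood at 0.87, 4.43 and −4.39, and Trp63 at 0.25, −2.21 and dim, in esophagus, stomach and intestine. Each of these 3 genes was highest on the array of its own organ, but other genes of the same lists were not. Klf5 of the esophagus list was highest in stomach (0.71, 1.82 and −0.12). Sox2, on the esophagus and stomach lists, stood at 1.04 in esophagus and 0.57 in stomach. Cdx1 of the intestine list was measured in stomach alone, at −5.57.

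Nepn separated from the other members. It was dim in esophagus and bright in stomach and intestine, whereas 7 of the 8 members measured on all 3 arrays were highest in esophagus. Among all 12864 genes measured on the 3 arrays, 27.5% were highest in esophagus. Lum was the exception, highest in intestine, and with scaling on the spike-in controls Bgn was also highest there. Aspn was dim on every array. The values that led to the choice of these genes come from the same arrays, so these counts describe the group and support nothing further.

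Markers of other tissues also differed between the arrays. Summed over a list and in the order esophagus, stomach, intestine, heart muscle markers (10 of 10 measured on each array) reached 131, 3.64 and 4.37 times the 75th percentile. Endocardium and cushion markers, 6 of 6, reached 17.8, 9.57 and 10.7 times, mostly through Cdh11 in esophagus and stomach. Cdh11, Tbx20 (−0.32, −3.23 and −4.45), Twist1 (1.17, −1.04 and −1.51) and Nfatc1 (−1.08, −2.42 and −2.95) were highest in esophagus. Postn (0.57, −0.49 and 2.03) and Npr3 (−1.29 in esophagus, 0.75 in intestine) were highest in intestine. Smooth muscle markers, 6 of 6, reached 140.0, 67.8 and 61.5 times. Trachea and lung markers reached 10.4, 1.82 and 0.719 times, with Nkx2-1, Sftpc and Tbx4 dim in stomach and in intestine and Tbx5 dim in intestine. Cartilage markers reached 8.08, 3.79 and 3.30 times, and Matn1 and Matn3 were dim on all arrays. Sox9 (1.49, 0.43 and −0.42) and Col2a1 (2.23, 1.12 and 0.37) were highest in esophagus. Col9a1 (−1.40, −3.05 and 0.18) was highest in intestine and Acan, at −3.35, in stomach. General mesenchyme markers, 8 of 8, reached 109, 93.2 and 110 times, mostly through Vim and Col3a1, which were highest in intestine. Within that list Prrx1 (3.01, −0.09 and −1.81), Pdgfrb (2.10, 1.11 and 1.38), Twist1 and Foxf2 were highest in esophagus. Pdgfra and Foxf1 were highest in stomach. Liver markers reached 9.60, 3.24 and 60.3 times, with Ttr dim in esophagus and stomach and Hnf4a dim in esophagus. The part of these tissues in the differences of the 10 genes was not tested. The arrays shared 1 slide and 1 scan, so slide position and organ cannot be told apart.

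**Figure D1:**
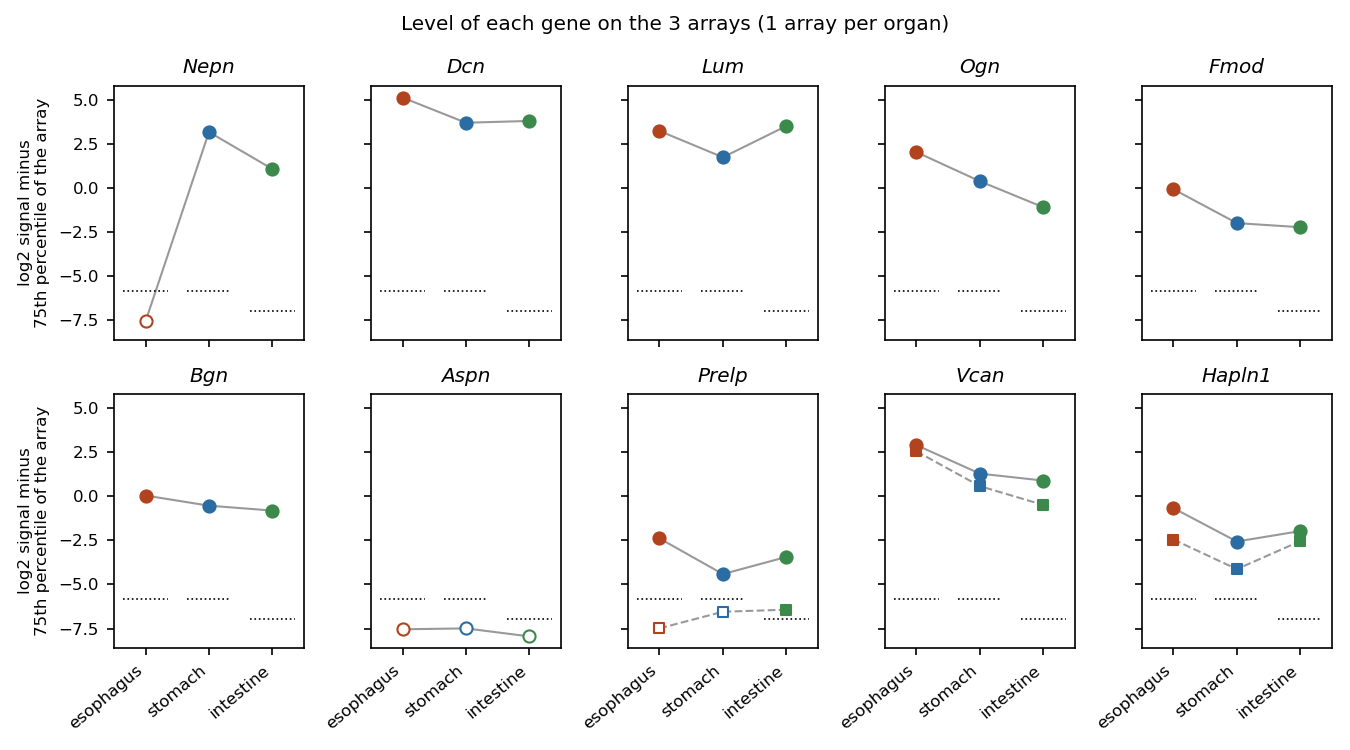
Level of each of the 10 genes (log2 signal scaled to the 75th percentile) on the esophagus, stomach and intestine arrays. Circles are the probe used for the gene, squares its other probe, open symbols dim probes, and dotted lines the lowest well-above-background level of each array. Nepn is open in esophagus and at 3.18 in stomach, and Aspn is open in all organs.

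Nepn encodes nephrocan, an SLRP known as a transcript of embryonic gut endoderm in the mouse and as an inhibitor of TGF-beta signalling in cultured cells. The esophagus array read it at an intensity of 2.09, the stomach array at 3031 and the intestine array at 2167. The stomach and intestine values stood far above the esophagus value, which was under the lowest well-above-background intensity of that array, 7.03. Against that floor Nepn was at least 507-fold above esophagus in stomach and at least 118-fold higher in intestine. On the log2 scale these bounds are 8.99 and 6.89, and after normexp correction they were 5.52 and 3.59. Relative to each array's 75th percentile the level was 3.18 in stomach and 1.08 in intestine, which put Nepn 4.28-fold lower in intestine. That difference, −2.10 log2 units, was −1.93 after normexp correction, −1.80 with median centring and −1.10 with spike-in scaling, all under 4-fold. Of the 13740 genes that entered the comparison of stomach with esophagus, 0.684% were 4-fold or more above esophagus. Of the 14462 that entered the comparison of intestine with esophagus, 1.75% were. These contrasts were used to choose the genes, so nothing is read from Nepn against them. Endoderm epithelium markers (Epcam, Cdh1, Krt8, Krt18, Foxa1 and Foxa2) were well above background on all arrays, 6 of 6. Krt8 and Krt18 carried most of the sum, while Cdh1 (0.0020, −0.16 and −0.67) and Foxa2 (2.82, 2.47 and −0.21) were highest in esophagus. Summed, the 6 reached 37.3 times the 75th percentile in esophagus, 96.3 times in stomach and 46.9 times in intestine, and their part in the Nepn difference was not tested. In such bulk RNA, fewer cells of a type and less RNA per cell cannot be told apart.

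The genes whose 3 levels lay nearest to those of Nepn, by Euclidean distance over the 3 organs with dim levels set at the floor, were all several log2 units away. Nkx6-2, a homeobox gene of the stomach list, was nearest at 3.38 log2 units and was also dim in esophagus. Akr1c13 lay at 3.90, Cartpt at 4.17 and Hoxb7 at 4.32, and these 3 were measured in esophagus. With 3 organs and 1 array each, this distance describes these arrays only.

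Promoter windows of 300 bases, 250 before to 50 after the start, were present in the RefSeq promoter table (build GRCm38.p6) for 8 of the 10 genes. Nepn is shown because it differed from the others, Fmod and Vcan because both were highest in esophagus. The Nepn window is chr10:52391358-52391657 on the plus strand, the Fmod window chr1:134037004-134037303 on the plus strand and the Vcan window chr13:89742463-89742762 on the minus strand. All are written 5′ to 3′ in the direction of transcription, and capitals mark matches on either strand to the motifs named after them.
Nepn: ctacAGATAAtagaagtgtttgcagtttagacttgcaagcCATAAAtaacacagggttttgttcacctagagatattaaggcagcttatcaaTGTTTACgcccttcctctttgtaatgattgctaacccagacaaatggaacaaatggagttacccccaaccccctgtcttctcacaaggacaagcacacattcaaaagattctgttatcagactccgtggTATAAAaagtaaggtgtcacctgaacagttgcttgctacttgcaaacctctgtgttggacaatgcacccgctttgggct
Fmod: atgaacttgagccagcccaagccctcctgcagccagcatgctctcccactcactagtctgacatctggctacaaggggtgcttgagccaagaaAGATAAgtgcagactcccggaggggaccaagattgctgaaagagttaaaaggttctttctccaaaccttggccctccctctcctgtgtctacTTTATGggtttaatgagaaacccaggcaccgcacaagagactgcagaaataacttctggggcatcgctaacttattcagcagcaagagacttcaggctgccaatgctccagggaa
Vcan: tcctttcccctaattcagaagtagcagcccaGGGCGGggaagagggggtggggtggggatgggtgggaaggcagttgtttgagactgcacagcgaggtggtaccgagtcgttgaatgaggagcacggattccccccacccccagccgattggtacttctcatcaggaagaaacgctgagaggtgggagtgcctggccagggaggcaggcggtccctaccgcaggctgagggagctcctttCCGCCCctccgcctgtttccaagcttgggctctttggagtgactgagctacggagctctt

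Motifs were searched as exact letters on both strands, and none of the marked matches overlapped in these 3 windows. The Nepn window held a TATA box (TATAAA) starting 29 bases before the start, which 13.6% of all 32851 promoter windows held at any position. It also held a GATA site (AGATAA, 11.2% of windows), a Cdx site (TTTATG, read on the minus strand, 11.9%) and a forkhead site (TGTTTAC, 3.65%). Of the 8 member windows 3 held the TATA letters (Nepn, Aspn and Ogn) and 3 the Cdx letters (Fmod, Nepn and Aspn). The GATA letters lay in 2 (Fmod and Nepn) and the forkhead letters in 1 (Nepn). The Fmod window also held the GATA and Cdx letters, and Fmod was lower in stomach and intestine than in esophagus. A link between these letters and the levels was not tested. The Vcan window held 2 GC boxes (GGGCGG, 35.7% of windows) and none of the other motifs. These are matches of letters and not sites of binding. The GC content of the window was 42.3% for Nepn and for Ogn, 51.0% for Fmod and 61.0% for Vcan, against a median of 52.7% over all windows.

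Of the SLRPs that bind fibrillar collagen and carry chondroitin or dermatan sulphate, Dcn and Bgn were both highest in esophagus but by different amounts. Dcn, decorin, which limits collagen fibril width and binds TGF-beta, gave intensities of 13825, 4365 and 14344 in esophagus, stomach and intestine. Scaled to the 75th percentile these became levels of 5.14, 3.71 and 3.81, so stomach and intestine lay close together and esophagus above both. Dcn was 2.69-fold lower in stomach and 2.51-fold lower in intestine than in esophagus. Its difference between intestine and stomach, 0.10 log2 units, was under the probe-to-probe SD. Both intestine values depended on the scaling: intestine against esophagus was −0.83 with median centring and −0.39 on the spike-in controls, and the latter placed Dcn more than 2-fold above stomach in intestine. Bgn, biglycan, which binds collagen and BMPs and is tied to bone matrix, had levels of 0.04, −0.53 and −0.81 in esophagus, stomach and intestine. Its differences from esophagus were −0.58 in stomach and −0.85 in intestine, each larger than the probe-to-probe SD but under 2-fold. With scaling on the spike-in controls the intestine difference of Bgn became 0.08, so its direction there depended on the scaling. Aspn, asporin, a relative of decorin that binds collagen and TGF-beta and is known in periosteum and periodontal ligament, had intensities of 2.11, 1.86 and 4.15, all dim, and no difference was computed.

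The SLRPs of the lumican and fibromodulin class, Lum, Fmod and Prelp, were all lower in stomach than in esophagus and differed in intestine. Lum, lumican, which orders collagen fibrils in cornea and skin, had levels of 3.24, 1.75 and 3.52 in esophagus, stomach and intestine. The esophagus and intestine levels lay within 0.28 log2 units, under the probe-to-probe SD, and stomach stood below both. Lum was 2.82-fold lower in stomach than in esophagus and 3.41-fold higher in intestine than in stomach. Fmod, fibromodulin, a collagen-binding SLRP of tendon and cartilage, had levels of −0.06, −1.98 and −2.22. It was 3.78-fold below esophagus in stomach and 4.44-fold below it in intestine, and its stomach and intestine values differed by less than the probe-to-probe SD. Prelp, an SLRP that binds heparan sulphate and collagen at basement membranes, had levels of −2.39, −4.41 and −3.44. It was 4.06-fold lower in stomach than in esophagus, and 2.07-fold lower in intestine. The intestine difference was under 2-fold with quantile normalization (−0.59), median centring (−0.55) and spike-in scaling (−0.12), and 0.0037 with the mean over probes. After normexp background correction the stomach difference was −0.65, and its other probe was dim in esophagus and stomach and measured in intestine at −6.43, so the Prelp values rest on 1 probe with a weak stomach signal.

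Ogn, osteoglycin, also called mimecan, an SLRP of bone and connective tissue, was graded along the gut. Its levels were 2.04, 0.39 and −1.08 from esophagus to intestine. Each step exceeded the probe-to-probe SD, with Ogn 3.14-fold lower in stomach than in esophagus, 2.78-fold lower from stomach to intestine and 8.72-fold lower from esophagus to intestine. The last was the largest difference measured on both arrays among the members, and it stood at −2.19 with spike-in scaling, under which the step from stomach to intestine was −0.48 and no longer 2-fold.

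The hyaluronan-binding pair Vcan and Hapln1 was highest in esophagus by both probes of Vcan and by both probes of Hapln1 when set against stomach. Vcan had levels of 2.90, 1.28 and 0.89 by the probe used and 2.54, 0.57 and −0.49 by its other probe. The probe used gave Vcan 3.07-fold lower in stomach and 4.03-fold lower in intestine than in esophagus. The other probe gave −1.97 and −3.04 log2 units, the same direction with a larger difference in intestine. Hapln1 had levels of −0.67, −2.56 and −1.97, and was 3.72-fold below esophagus in stomach and 2.47-fold below it in intestine. Its other probe gave −1.68 for stomach and −0.09 for intestine against esophagus, so the Hapln1 difference between intestine and esophagus was not shared by its probes. Between intestine and stomach, both probes placed Hapln1 higher in intestine, at 0.59 and 1.59, but the first became −0.05 after normexp correction.

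**Figure D2:**
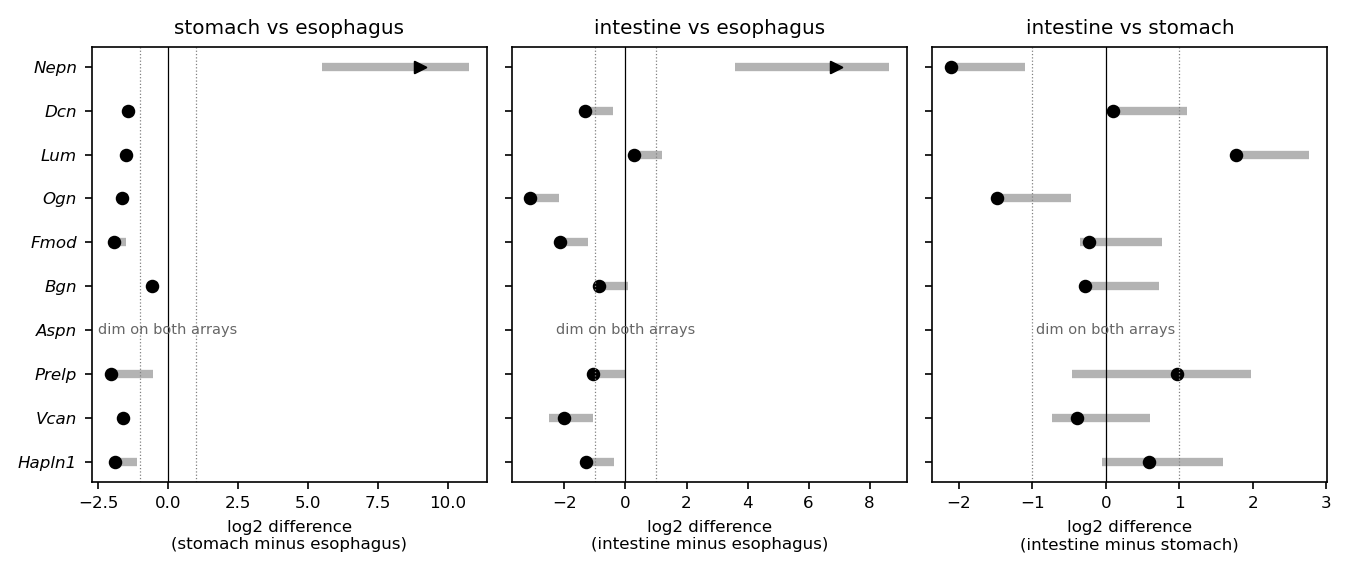
Log2 difference of each gene in the 3 comparisons (points, with triangles for bounds where 1 array was dim). Grey bars run over the main value and all alternative settings, and dotted lines mark 2-fold. For stomach against esophagus every bar lies on 1 side of 0, with Nepn alone to the right.

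Over the group, 9 of 10 genes could be compared in each pair of organs, Aspn being dim. In stomach 7 genes lay 2-fold or more below esophagus, against 5.71% of the 13740 genes compared, and 1 (Nepn) 2-fold or more above, against 4.14%. Prelp, at −2.02, was the 1 gene 4-fold or more below, against 1.58%. It was under 4-fold with quantile normalization (−1.85) and median centring (−1.82). After normexp correction (−0.65) and with the mean over probes (−0.54) it was under 2-fold, and 6 genes lay 2-fold or more below. The median over the 9 was −1.62 log2 units, whereas over all genes it was 0.15. Without Nepn the 8 differences ran from −2.02 (Prelp) to −0.58 (Bgn). All 9 kept their direction under each of the 8 alternative settings that gave them a value. Bgn, at −0.58, was the 1 member outside 2-fold, and Dcn, at −1.43, the member nearest inside it.

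In intestine 6 genes lay 2-fold or more below esophagus, against 11.5% of 14462 genes, and 1, again Nepn, 2-fold or more above, against 8.4%. Ogn, Fmod and Vcan lay 4-fold or more below, 3 genes against 3.7% of all. Over the main and alternative settings Ogn ran from −3.13 to −2.19, Fmod from −2.16 to −1.22 and Vcan from −2.52 to −1.08. Only Ogn thus stayed beyond 4-fold in every setting. The median was −1.30, and 0.13 over all genes. Prelp, at −1.05, lay just inside 2-fold and Bgn, at −0.85, just outside. This comparison depended on how the intestine array was scaled: on the spike-in controls 3 genes remained 2-fold or more below (Ogn, Fmod and Vcan) and 2 lay above (Nepn and Lum). That scaling moved the median of all genes to 1.04, and relative to it the median of the members was −1.41, against −1.44 with the 75th percentile.

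Set against stomach, intestine had 1 gene 2-fold or more above (Lum, 1.77), against 4.77% of 14384 genes, and 2 below (Nepn and Ogn), against 7.18%. By their other probes, Vcan (−1.07, and −0.39 by the probe used) also lay 2-fold or more below and Hapln1 (1.59, and 0.59) above. At 4-fold there were 0 above, against 1.38%, and 1 below (Nepn), against 1.24%. With spike-in scaling 4 genes lay 2-fold or more above and 1 below, and the median was 0.76 against 0.95 over all genes. The median over the 9 was −0.23, and that over all genes −0.02. Prelp, at 0.97, lay just outside 2-fold. Here 4 of the 9 genes (Nepn, Dcn, Lum and Ogn) kept their direction under every alternative, and Prelp (−0.46) and Hapln1 (−0.05) turned after normexp correction. Fmod, Bgn and Vcan turned only with spike-in scaling or median centring, which moved the median of all genes to 0.95 and 0.27. They stayed below that median in both.

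**Figure D3:**
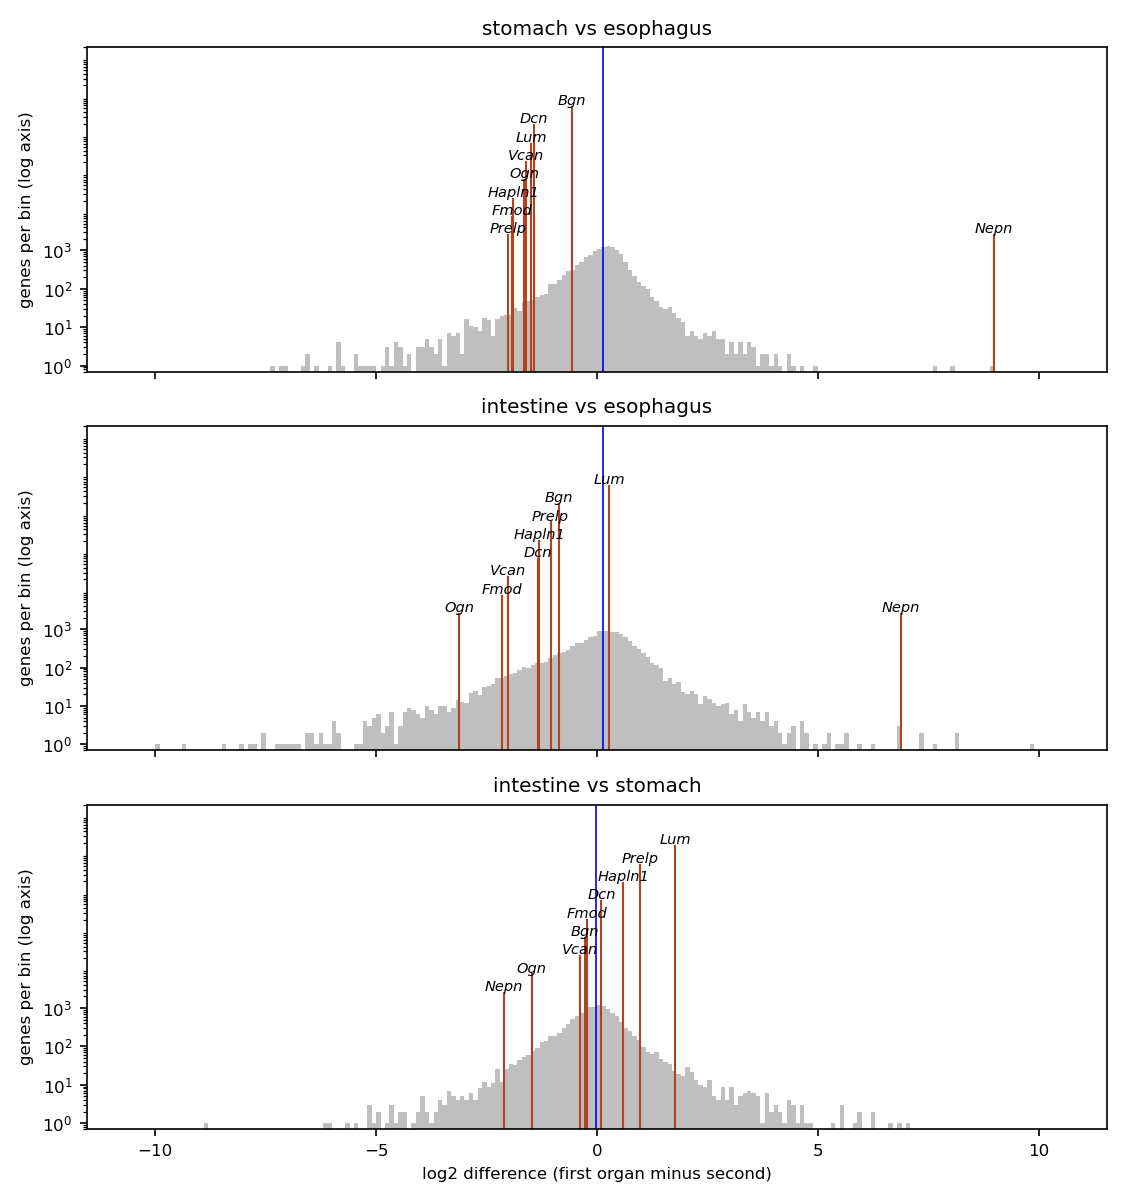
Distribution of log2 differences over all named genes with a value (grey, log count axis) and the position of each member (red lines, whose heights only make room for the names) in the 3 comparisons. The blue line is the median of all genes, 0.15, 0.13 and −0.02 from top to bottom, and 8 members lie to its left in the first panel.

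Several members are neighbours in the mouse genome, which the choice of genes did not use. In the RefSeq annotation Ecm2, Aspn, Omd and Ogn are consecutive protein-coding genes, as are Dcn, Lum, Kera and Epyc, then Optc, Prelp and Fmod, and the pair Hapln1 and Vcan. In the Ogn neighbourhood 1 of 4 genes was measured: Ecm2, an SLRP-like matrix protein, Aspn and Omd, osteomodulin of bone matrix, were dim on every array. In the Dcn neighbourhood all 4 were measured in esophagus and stomach, and all 4 were lower in stomach than in esophagus. The differences were −1.43 log2 units for Dcn, −1.49 for Lum, −2.75 for Kera and −0.82 for Epyc, whose other probe gave −1.31. Over all genes 5219 of 13740 were below 0, and Dcn and Lum were chosen with these contrasts known. The 4 genes parted in intestine. Kera, keratocan, a keratan sulphate SLRP of cornea, had levels of −1.99 in esophagus and −4.74 in stomach and was dim in intestine, at least 31.6-fold lower than in esophagus. Epyc, epiphycan, an SLRP of growth cartilage, had levels of −0.50, −1.32 and 0.60, and its difference between intestine and stomach was 1.92 log2 units, beside 1.77 for Lum. The other Epyc probe gave 1.83.

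In the Prelp and Fmod neighbourhood Optc, opticin of the eye's vitreous, was measured in intestine alone, near the floor at −6.13. Hapln1 and Vcan, side by side, were both lower in stomach than in esophagus, at −1.89 and −1.62 log2 units. The other lecticans also lie beside link protein genes, Acan beside Hapln3, Ncan beside Hapln4 and Bcan beside Hapln2. Acan, aggrecan of cartilage, stood at 0.20 log2 units for stomach and −0.15 for intestine against esophagus. Ncan, neurocan of neural tissue, was 0.73 log2 units higher in stomach than in esophagus, and Hapln3 0.45 higher, both opposite in sign to Vcan and Hapln1. Hapln2 was dim on every array, and Bcan and Hapln4 were measured in intestine alone.

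**Figure D4:**
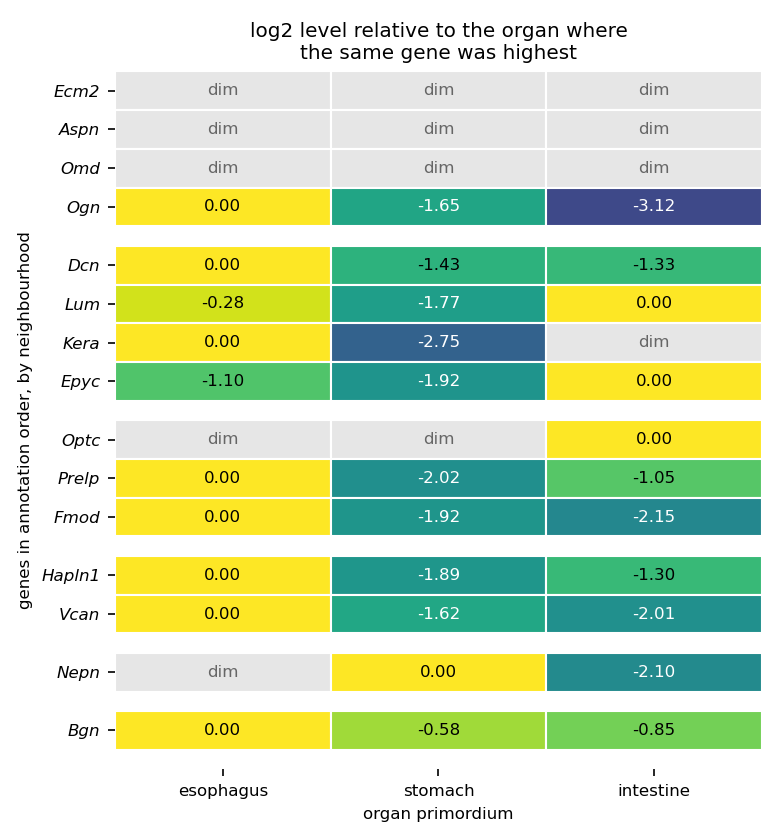
Levels of the SLRP and linker genes in annotation order, grouped by neighbourhood, as log2 units relative to the organ in which the same gene was highest. Grey cells are dim. In the Dcn group the stomach is low for every gene, while the intestine is highest for Lum and Epyc and dim for Kera.

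The other genes of this matrix were taken from lists. Of 10 further SLRPs with a probe, 4 were measured on all 3 arrays and 2 on none. Between stomach and esophagus 6 could be compared, with 3 above 0, 3 below and a median of −0.16 log2 units. At 2-fold or more 1 was higher, against 4.14% of all genes, and 1 lower, against 5.71%. Between intestine and esophagus 4 were above 0 and 2 below, with a median of 0.33. Nyx, nyctalopin of the retina, was at least 2.72-fold higher in stomach by a weak probe, its other probe being dim in both organs, and Kera 6.73-fold lower. Podnl1 was 2.15-fold below esophagus in intestine. Of the proteases that cut versican, 6 of 6 were below 0 for stomach against esophagus, as were 5219 of the 13740 genes compared. Their median was −1.11, and 3 of 6 (Adamts5, Adamts8 and Adamts20) were 2-fold or more below, against 5.71% of all genes. Adamts20 was 13.3-fold below esophagus in intestine by 1 probe, its other probe being dim throughout. Adamts8, also studied as an inhibitor of vessel growth, was in intestine 4.73-fold above esophagus and 11.8-fold above stomach. Matrix proteins that bind versican had a median of −1.05 for stomach against esophagus, and 4 of 5 (Fbln2, Fbn1, Fbn2 and Tnc) were 2-fold or more below, against 5.71% of all genes. The other Fbn1 probe gave −0.80, under 2-fold. Tnc, tenascin-C, had levels of 1.11, −1.11 and −3.28, a step of 4.66-fold from esophagus to stomach and 4.49-fold from stomach to intestine, although its other probe gave −0.85 and −0.21 log2 units.

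Fibrillar collagens, the fibrils that SLRPs coat, had medians of −0.49 for stomach and −0.80 for intestine against esophagus, against 0.15 and 0.13 over all genes. In stomach 2 of 9 (Col1a1 and Col2a1) were 2-fold or more below, against 5.71% of all genes, and in intestine 4 of 9 (with Col1a2 and Col5a3), against 11.5%. Col1a1, a chain of the main collagen of bone and skin, stood at −1.43 and −1.66, beside −1.43 and −1.33 for Dcn. Col3a1, the collagen of soft tissue, stood at −0.19 and 0.46 by the probe used and at −0.40 and −1.49 by its other probe, so its direction in intestine differed between probes. Col5a3 was 4.05-fold below esophagus in intestine by 1 probe, its other probe being dim throughout. The enzymes that build chondroitin and dermatan sulphate had a median of 0.05 for stomach against esophagus. Of 18 genes 0 were 2-fold or more below, against 5.71% of all genes, and 1, Chst15, above, against 4.14%. Chst15, a sulphotransferase of chondroitin sulphate, was 10.2-fold above esophagus in intestine. The hyaluronan list had medians of −0.33 and 0.03 for stomach and intestine against esophagus. Has2, the main hyaluronan synthase of embryos, stood at −0.90 and −1.20. Tnfaip6, which moves inter-alpha-trypsin inhibitor chains onto hyaluronan, was 4.84-fold below esophagus in intestine. Itih3 and Itih2, plasma proteins made by liver, were 20.7-fold and 6.33-fold higher in intestine than in stomach. The Itih3 value was taken against a weak stomach intensity of 7.39, near the lowest well-above-background intensity of that array, 5.85. Lyve1, a hyaluronan receptor of lymphatic and other vessels, was 4.97-fold lower in stomach than in esophagus. Stab2, a hyaluronan receptor of liver sinusoids, was 4.37-fold above esophagus in intestine. The keratan sulphate enzymes had medians of 0.13 and 0.21 for stomach and intestine against esophagus. In stomach 1 of 5, Chst2, was 2-fold or more below esophagus (3.74-fold), against 5.71% of all genes.

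**Figure D5:**
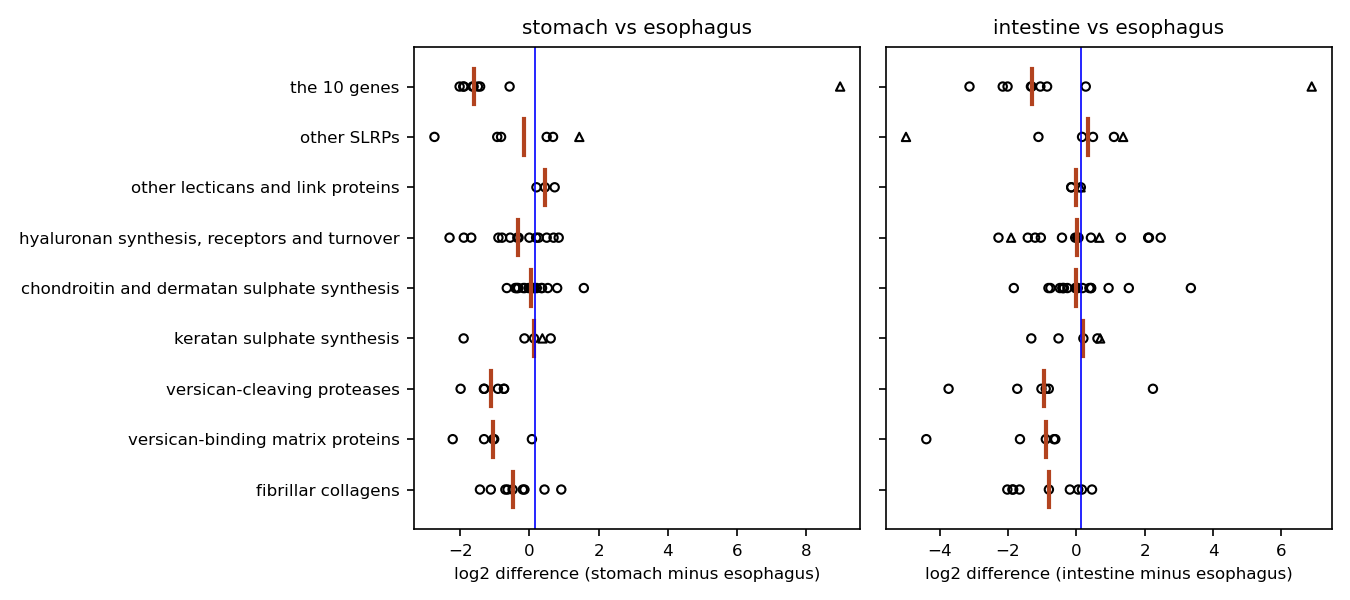
Log2 differences of the 10 genes and of 8 lists of related matrix genes for stomach and for intestine against esophagus. Circles are measured on both arrays, triangles are bounds, red bars are list medians and the blue line is the median of all genes. The 10 genes, the versican-cleaving proteases and the versican-binding proteins have medians of −1.62, −1.11 and −1.05 for stomach.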

How the data were processed

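RNA from 3 organ primordia was labelled with Cy3, per the labels' protocols, with 1 array per organ. The deposited scanner files hold spot intensity values that, per the file headers, Agilent Feature Extraction 10.5.1.1 produced, background-subtracted and detrended within each array and not scaled between arrays. A deposited table of log2 values matched the scanner values minus a level set per array within 0.01 log2 units for 99.8% to 99.9% of probes after removal of 1 constant per array (0.05, 0.07 and 0.05). It is thus a log2 signal close to the 75th percentile scale, without centring of each probe, with column medians of −2.96, −3.16 and −3.46, and it served as an alternative.

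Outlier spots (111, 70 and 77) were left out, and 0 spots were saturated. Levels are log2 of the processed signal minus the 75th percentile of non-control spots, averaged over spots of a probe. The files hold no gene name column, so accessions were matched to the RefSeq table of assembly GRCm38.p6, which named 24342 of 41112 probes, and each gene took the probe with the highest mean level. A gene entered a comparison when measured on at least 1 array. Where 1 array was dim, the difference is a bound against the higher of 2 signals on that array, the probe's own and the lowest of any probe well above background, and bounds under 1-fold give no value. Shares over all genes are taken over every gene that entered, also those without a value, and are to that extent low. For intestine against esophagus 8171 genes were above 0 and 5734 below, of 14462 that entered. No test was run, since each organ has 1 array. The difference step was tested on simulated data. Outside the 10, the rule named list genes 4-fold or more apart in a comparison and the 5 genes nearest to Nepn. One of the latter is not reported here. Other genes, such as genome neighbours, tissue markers, Has2 and Col1a1, were named after their values were seen.

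Normexp correction (limma 3.58.1, offset 50) used the median spot signal, as the mean signal planned is not a column of these files. Analyses ran in Python 3.11.15 with pandas 2.3.3. The members and lists were chosen with earlier results of these data known.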

Additional observations from a re-analysis of the deposited data

How the results depend on the processing

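With the 75th percentile replaced by the array median, 3 genes lay 2-fold or more below esophagus in intestine with a median of −0.80, and 2 lay above stomach in intestine, as also under quantile normalization and with the mean over a gene's probes. With signal required on both arrays, 0 genes lay 2-fold or more above esophagus in stomach or intestine, since Nepn then has no value. Scaling on 8 spike-in probes, chosen after seeing the data, gave 2 genes above and 3 below esophagus in intestine with a median of −0.37, and 4 above and 1 below stomach in intestine with a median of 0.76. The mean over probes turned Prelp in intestine against esophagus to 0.0037, because its dim probe then counts. Median centring moved the median of all genes to 0.35, 0.62 and 0.27 in the 3 comparisons. Of 214 values for single genes under the alternatives, 170 moved by less than the probe-to-probe SD, 43 by more, and 1 changed sign from beyond 2-fold. The lower bounds for Nepn against esophagus were smallest after normexp correction, 5.52 for stomach and 3.59 for intestine, and without the filter on dim probes its differences were 10.74 and 8.64, taken against a signal not above background. Prelp and Hapln1 in stomach against esophagus shrank to −0.65 and −1.12 after normexp correction. No paired analysis was possible because each organ has 1 array, and for the same reason no replicate could be left out. Signal over background limits Prelp, Nepn in esophagus and Aspn.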
